A study of Mus musculus with 3 samples.

Results

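Genes of antigen presentation by class II molecules were followed in cells of the mouse bone marrow niche. They are 9 named genes of the 31053 features in each count matrix: Cd74, H2-Aa, H2-Ab1, H2-Eb1, Ciita, H2-DMa, H2-DMb1, H2-DMb2 and H2-Oa. The list was set by name, and each name matched 1 feature. The study profiled endothelial cells and LepR+ stromal cells from tibial marrow by droplet single-cell RNA sequencing after deletion of Vegfc, the gene for a lymphatic and vascular growth factor. It comprised 3 libraries, 1 per genotype, of strain C57Bl/6JCrl, and every animal had been given tamoxifen by gavage. WT was wild type. FLOX was Vegfc flox/flox, with no Cre named in its label. VC was Cdh5CreERT2;Vegfc flox/flox, in which a tamoxifen-dependent Cre is driven by the endothelial promoter of VE-cadherin (Cdh5). The labels do not state the animals' ages or sexes, their number per library, any pooling, or the sorting gates. With 1 library per genotype there was no replicate check and no test was run, and a range in parentheses is a 95% interval for counting error alone.

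Class II molecules are pairs of an alpha and a beta chain that display peptides from the endosome to CD4+ T cells. H2-Aa and H2-Ab1 encode the chains of the A molecule, and H2-Eb1 encodes the beta chain of the E molecule. Cd74 encodes the invariant chain, which escorts new class II molecules to the endosome and blocks their groove until proteases remove it. H2-DM, a pair of H2-DMa with H2-DMb1 or H2-DMb2, then exchanges the last invariant chain fragment for peptide, and H2-O, of H2-Oa and H2-Ob, inhibits H2-DM. The transactivator Ciita switches class II genes on: B cells and dendritic cells express it as part of their identity, while endothelium and other tissue cells express it after exposure to interferon-gamma.

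Cells were assigned by counts of marker genes in UMIs (unique molecular identifiers, 1 per captured transcript). Arterial cells had Cdh5, at least 2 of the genes Sox17, Sema3g, Fbln2 and Gja4, at most 1 UMI of Stab2 and under 50 of Cxcl12. Sinusoidal cells had at least 2 UMIs of Stab2, a scavenger receptor of sinusoids. LepR stromal cells had at least 50 UMIs of the chemokine Cxcl12, at least 1 of Lepr or Adipoq, and at most 2 of Cdh5. B cells had at least 2 UMIs of Cd79a, a part of the B cell receptor, and no Cdh5. In the order WT, FLOX and VC there were 58, 189 and 89 arterial cells, 3057, 3348 and 1679 sinusoidal cells, 264, 1107 and 466 LepR stromal cells, and 339, 373 and 168 B cells.

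Of the 15624 barcodes, 12790 were kept, and pairs of libraries shared 5 to 10 barcode sequences. Median depth per kept cell was 10404 (WT), 8702 (FLOX) and 10917 UMIs (VC). As a check of the gates, 4 pan-endothelial genes summed to between 3489 and 5938 CPM (UMIs per 1000000 of the gate's total) in both endothelial gates and to at most 41.3 CPM in stromal cells, where 4 stromal genes summed to between 28999 and 33369 CPM. The targeted gene, Vegfc, had 122, 204 and 22 UMIs in sinusoidal cells of WT, FLOX and VC, or 3.05, 6.28 and 1.00 CPM. In LepR stromal cells it was at 246, 201 and 145 CPM. Which exons are floxed is not given, so a count from the 3′ end need not show the deletion. The B cell gate was not of 1 kind, since 11 of its WT, 191 of its FLOX and 68 of its VC cells also met a plasma cell gate. Markers of other leukocytes reached the endothelial and stromal gates in all 3 libraries, and main results are given with and without the cells that carried them.

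All members but Cd74 and Ciita lie in the major histocompatibility complex. GENCODE M21 places those 7 genes within 224 kb of chromosome 17 (GRCm38, bases 34092340 to 34316674). Promoters of class II genes are known for an X box, bound by RFX and CREB, and a Y box, bound by NF-Y, on which Ciita assembles without binding DNA itself. A RefSeq table (GRCm38.p6) gave the promoter windows of 6 members, and stretches of 4, genes with different values below, are shown. The letters GATTGG, the Y box, were found on either strand in 6 of these 6 members and in 14.6% of 32851 promoters of the same length. After the windows had been read, the letters AAC, any 2 bases, then ATGATG were chosen as an X box. They were found in H2-Eb1, H2-DMb1 and H2-DMb2, 3 of the 6, and in 0.119% of all promoters. The first bases of the boxes lay 29 bases apart in H2-Eb1, 30 in H2-DMb1 and 30 in H2-DMb2. Stretches around the Y box are printed for 4 members from the strand of the gene, with the Y box and, where matched, the X box in capitals. H2-DMa, whose Y box began at -199 from the start site, is not printed. H2-DMb1 was left out because 88 bases of its stretch lay in annotated exons.
H2-Aa (chr17:34287842-34287932, minus strand): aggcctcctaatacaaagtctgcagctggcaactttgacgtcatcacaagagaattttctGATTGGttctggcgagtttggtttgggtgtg
H2-Eb1 (chr17:34305747-34305837, plus strand): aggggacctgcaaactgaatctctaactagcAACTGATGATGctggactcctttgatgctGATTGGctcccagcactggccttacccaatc
H2-DMb2 (chr17:34145098-34145188, plus strand): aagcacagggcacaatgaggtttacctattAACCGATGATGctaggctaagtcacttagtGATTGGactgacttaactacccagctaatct
H2-Oa (chr17:34092275-34092365, plus strand): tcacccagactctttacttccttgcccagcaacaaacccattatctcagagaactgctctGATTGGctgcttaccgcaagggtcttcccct
The H2-Aa and H2-Oa stretches hold no match to the letters used for the X box, which says only that these letters are not there. Among other motifs searched on both strands, ACAGATG was in 2 of 6 members (4.15% of all promoters) and an interferon response element (GAAA, any 2 bases, GAAA) in 0 (2.98%).

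In sinusoidal endothelium most of the class II set stood higher in VC than in either control, and H2-Oa, of the inhibitor, did not. A member was called when it was at least 1.5-fold higher, in CPM, in VC than in WT and than in FLOX, among features with at least 20 UMIs over the 3 sums. Of the 9 members 8 could be assessed and 8 of these were called, against 2.09% of the 14942 features assessed (313 features). Medians over the 8 members were 4.58 on the log2 scale for VC over WT and 3.14 for VC over FLOX, beside -0.15 and -0.08 over all features. H2-DMb2 reached 20 UMIs only through VC, and H2-Oa did not reach them.

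Ciita, the transactivator, had 42, 52 and 480 UMIs in sinusoidal cells of WT, FLOX and VC. These counts correspond to 1.05, 1.60 and 21.9 CPM. The 2 controls were near each other, and VC stood 20.8-fold above WT (15.1 to 29.2) and 13.6-fold above FLOX (10.2 to 18.5). A UMI of Ciita was found in 1.11% of WT, 1.02% of FLOX and 18.1% of VC sinusoidal cells. After each cell had been thinned to 2000 UMIs, which removes differences in depth, the shares were 0.231%, 0.242% and 4.74%.

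Cd74, the invariant chain, had the most UMIs of the members. It maps to chromosome 18. Its sinusoidal UMIs numbered 357 (WT), 1869 (FLOX) and 11060 (VC), or 8.94 (8.04 to 9.92), 57.6 and 503.5 CPM (494.1 to 512.9). The ordering was VC above FLOX above WT, with VC 56.3-fold above WT (50.7 to 62.8) and 8.75-fold above FLOX (8.33 to 9.19). The 2 controls themselves differed by 2.69 on the log2 scale, and few cells carried that difference. The 10 cells richest in Cd74 held 60.8%, 56.1% and 9.95% of its sinusoidal UMIs in WT, FLOX and VC. At least 10 Cd74 UMIs were found in 6 cells of WT, 28 of FLOX and 410 of VC. A UMI of a leukocyte marker (Cd79a, Cd79b, Ms4a1, Ptprc or Lyz2) was present in 6 of those 6 WT cells and in 25 of those 28 FLOX cells. In VC it was present in 72 of the 410, or 17.6%, beside 12.6% of all VC sinusoidal cells.

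**Figure D1:**
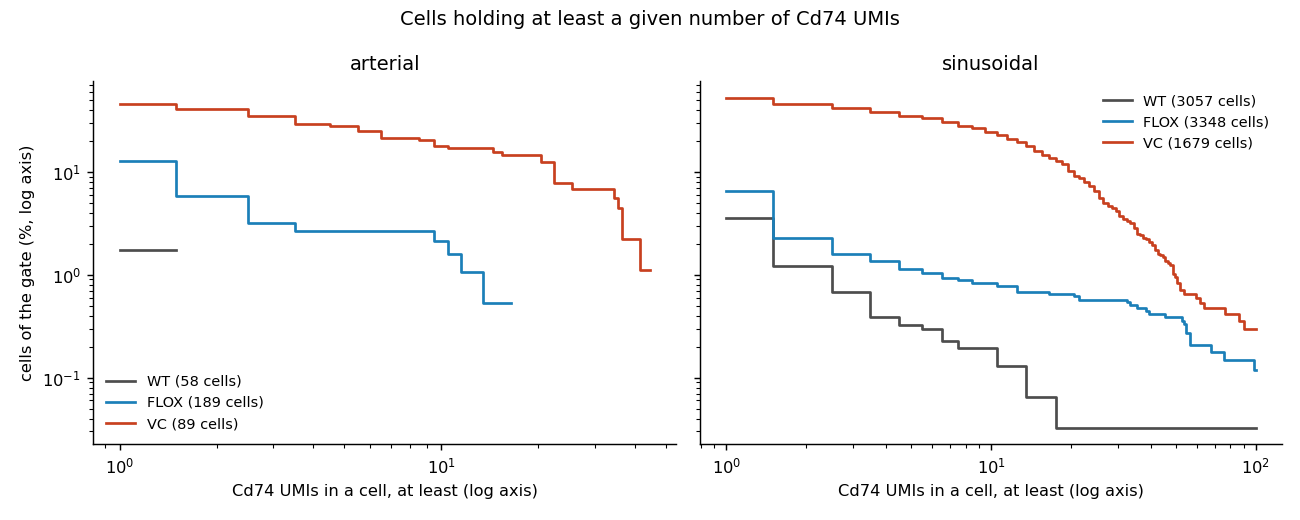
Share of arterial and sinusoidal cells (percent, log axis) that hold at least the number of Cd74 UMIs on the x axis (log axis), 1 line per library. In sinusoidal cells 52.7% of VC cells hold at least 1 UMI and 0.953% at least 50, beside 6.57% and 0.388% in FLOX and 3.60% and 0.0327% in WT.

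Leaving out every cell with such a marker left 2584 WT, 2932 FLOX and 1468 VC sinusoidal cells. They held 108, 235 and 8489 Cd74 UMIs, a level of 3.33 CPM for WT (2.73 to 4.02), of 7.89 to 10.2 CPM for FLOX and of 472 CPM for VC (462 to 482). The control levels were lower and the VC level close to that of the whole gate, and the log2 ratio of VC to the nearer control was 5.71, beside 3.13 in the whole gate. For H2-Aa, the alpha chain of the A molecule, the levels without those cells were 1.88, 3.64 and 149 CPM. Ciita was then at 1.05, 0.996 and 21.4 CPM, and H2-DMa at 0.771, 0.843 and 21.8 CPM. In these cells the VC values were about as large as in the whole gate, and the FLOX values were closer to WT. Over the whole gate, 12 phagocyte and dendritic markers summed to 56.5, 269 and 183 CPM, with 1 of 12 at 0 in each library, and FLOX was higher there than VC. The 3 T cell markers summed to at most 0.273 CPM.

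The A and E chain genes among the members had the same ordering of libraries as Cd74. H2-Aa had 92, 336 and 3255 UMIs in sinusoidal cells of WT, FLOX and VC, which is 2.30, 10.4 and 148 CPM. VC was 64.3-fold above WT (52.3 to 80.0) and 14.3-fold above FLOX (12.8 to 16.1). H2-Ab1, the beta chain of the same molecule, had 173, 438 and 2634 UMIs and was 27.7-fold (23.7 to 32.5) and 8.89-fold (8.03 to 9.86) higher in VC. The 2 chains of the A molecule were thus at similar levels in VC, 148 CPM and 120 CPM. H2-Eb1, for the beta chain of the E molecule, had 58, 194 and 1645 UMIs. It was 51.6-fold (39.7 to 68.2) and 12.5-fold (10.8 to 14.6) higher. No gene of the E alpha chain was among those followed, so these counts do not show that an E molecule is formed.

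Of the peptide editors, H2-DMa and H2-DMb1 had the ordering of the other members at lower levels. H2-DMa, the alpha chain of H2-DM, had 62, 84 and 483 UMIs, or 1.55, 2.59 and 22.0 CPM. H2-DMb1, its beta chain, was at 1.08, 2.50 and 17.2 CPM (43, 81 and 377 UMIs). Both stood apart in VC, with H2-DMa 8.50-fold (6.73 to 10.8) and H2-DMb1 6.88-fold (5.40 to 8.86) above FLOX. H2-DMb2, the other beta chain, was low in all 3 libraries, with 6, 11 and 22 UMIs or 0.150, 0.339 and 1.00 CPM. It was 2.96-fold above FLOX in VC (1.37 to 6.75). Without the cells that held a leukocyte marker it had 0, 2 and 17 UMIs, too few to be assessed. The 2 beta chain genes are close in sequence: 25.3% of 31-base words in the last 500 bases of the H2-DMb1 transcript also occur in H2-DMb2, so some H2-DMb1 reads may be uncertain, while 0.851% of such H2-DMb2 words occur in H2-DMb1.

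H2-Oa, a chain of the inhibitor H2-O, did not have this ordering. Its sinusoidal UMIs were 4 (WT), 11 (FLOX) and 1 (VC). VC was lowest, at 0.134 of the FLOX level (0.00312 to 0.924), but 16 UMIs in all kept it from being assessed. Without the cells that held a leukocyte marker the counts were 2, 1 and 0 UMIs, and no order can be read from them. H2-Ob, the partner chain and not one of the 9, had 12, 14 and 1 UMIs and was at 0.152 of WT (0.00354 to 1.02) and 0.106 of FLOX (0.0025 to 0.694). The B cell gate held 140, 118 and 75 UMIs of H2-Ob. Its sinusoidal count without the cells that held a leukocyte marker was not taken, so its order may rest on them.

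**Figure D2:**
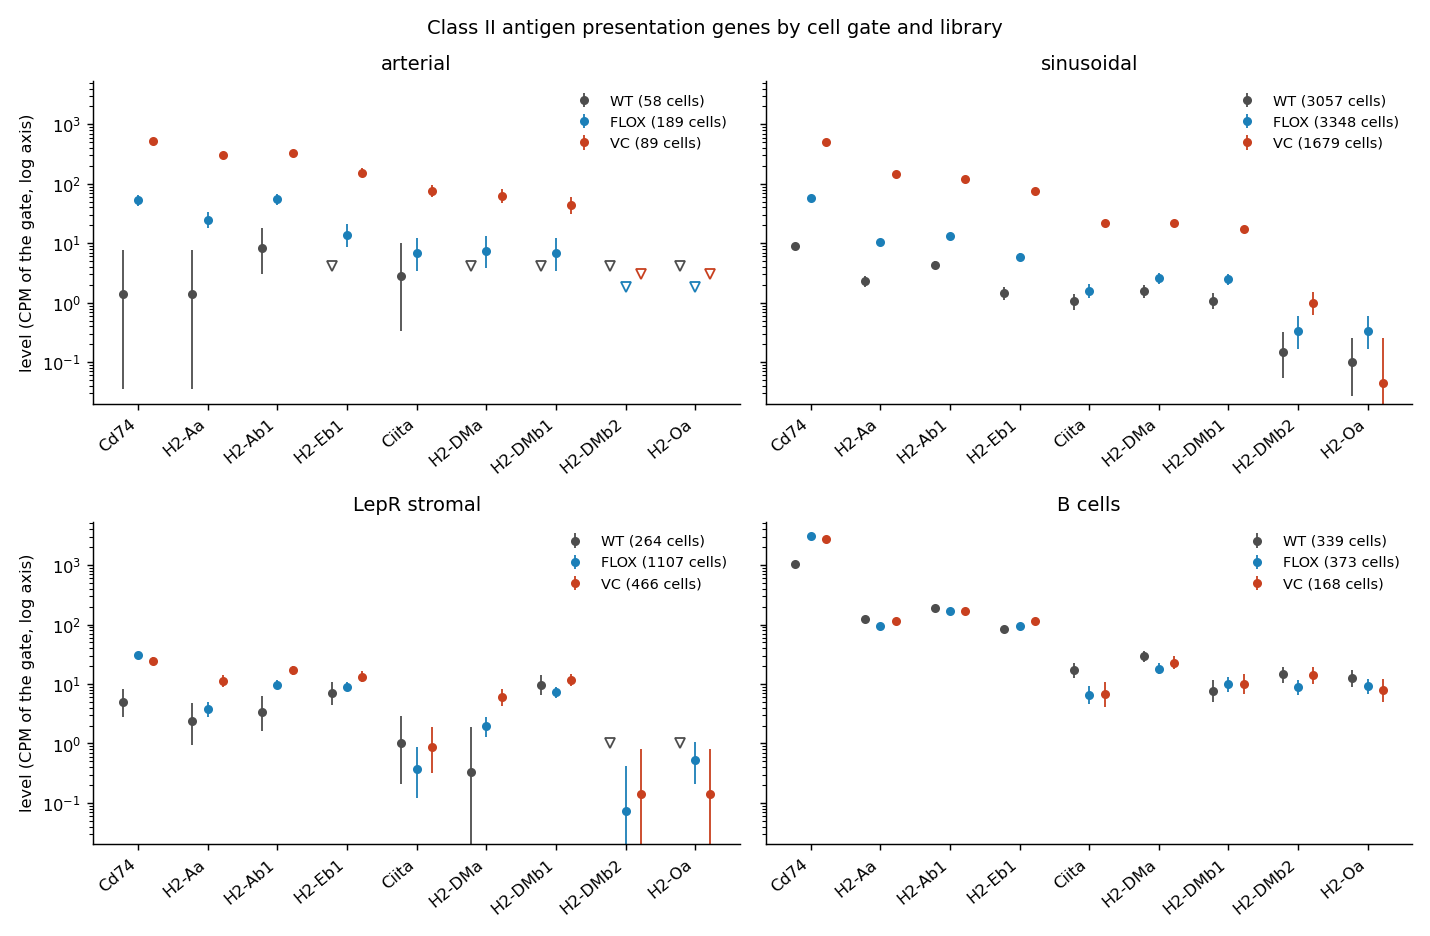
Level of the 9 genes (CPM, log axis) in 4 cell gates, 1 point per library with its 95% counting interval; open triangles mark a count of 0 at its floor of 3 UMIs. The VC points of 7 genes lie above both controls in the arterial panel and those of 8 genes in the sinusoidal panel, and H2-Oa has no such order.

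Arterial endothelium, with far fewer cells, had the members ordered in the same way. Of the 9 members 7 could be assessed and 7 were called, against 3.86% of 9617 features (371 features). H2-DMb2 and H2-Oa had 0 UMIs in all 3 arterial sums, which allows up to 4.22, 1.87 and 3.05 CPM. Medians over the 7 were 5.20 for VC over WT and 3.30 for VC over FLOX on the log2 scale, beside -0.08 and -0.08 over all features. WT arterial cells held between 0 and 6 UMIs of any member, so ratios to WT rest on few counts, and Ciita, H2-DMa and H2-DMb1 reached 20 UMIs only through VC.

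Ciita had 2, 11 and 75 UMIs in arterial cells of WT, FLOX and VC. VC was at 76.4 CPM (60.1 to 95.7), 27.1-fold above WT (7.26 to 228) and 11.1-fold above FLOX (5.88 to 23.3). Cd74 had 1, 85 and 511 UMIs, or 1.41, 53.0 and 520.2 CPM, and was 9.82-fold above FLOX (7.79 to 12.5). H2-Aa had 1, 40 and 297 UMIs and was 12.1-fold above FLOX (8.70 to 17.3). These 3 members were ordered VC, FLOX, WT without overlap of their counting intervals between VC and FLOX. The 10 richest cells held 82.4% of the arterial Cd74 UMIs in FLOX and 62.0% in VC. H2-Ab1 had 6, 88 and 329 UMIs and was 6.11-fold above FLOX (4.81 to 7.82). H2-Eb1 had 0, 22 and 152 UMIs, at least 36.7-fold above a WT floor of 3 UMIs, with a lower 95% bound of 29.5 for the ratio, and 11.3-fold above FLOX (7.19 to 18.5). For the editors, H2-DMa had 0, 12 and 62 UMIs and H2-DMb1 had 0, 11 and 43, at least 15.0-fold and at least 10.4-fold above that floor, with lower 95% bounds of 11.8 and 8.08.

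FLOX arterial cells also lay above WT in Cd74, H2-Aa and H2-Ab1. H2-Ab1 was found in 24.9% of 189 FLOX cells (18.9 to 31.7) and in 8.62% of 58 WT cells (2.86 to 19.0), with intervals that just overlap. In contrast to the sinusoidal gate, none of the 4 FLOX arterial cells with at least 10 Cd74 UMIs held a leukocyte marker. Without the cells that did, Cd74 was at 1.69, 63.1 and 545 CPM, and the log2 ratio of VC to FLOX was 3.11, beside 3.30 for the whole gate. Lyz2, a lysozyme of neutrophils and macrophages, led the phagocyte markers of the gate at 11.3, 752 and 748 CPM, in 10.3%, 10.1% and 12.4% of WT, FLOX and VC cells. FLOX and VC were alike in this marker and differed in the members. The T cell markers were at 0 in all 3 libraries.

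**Figure D3:**
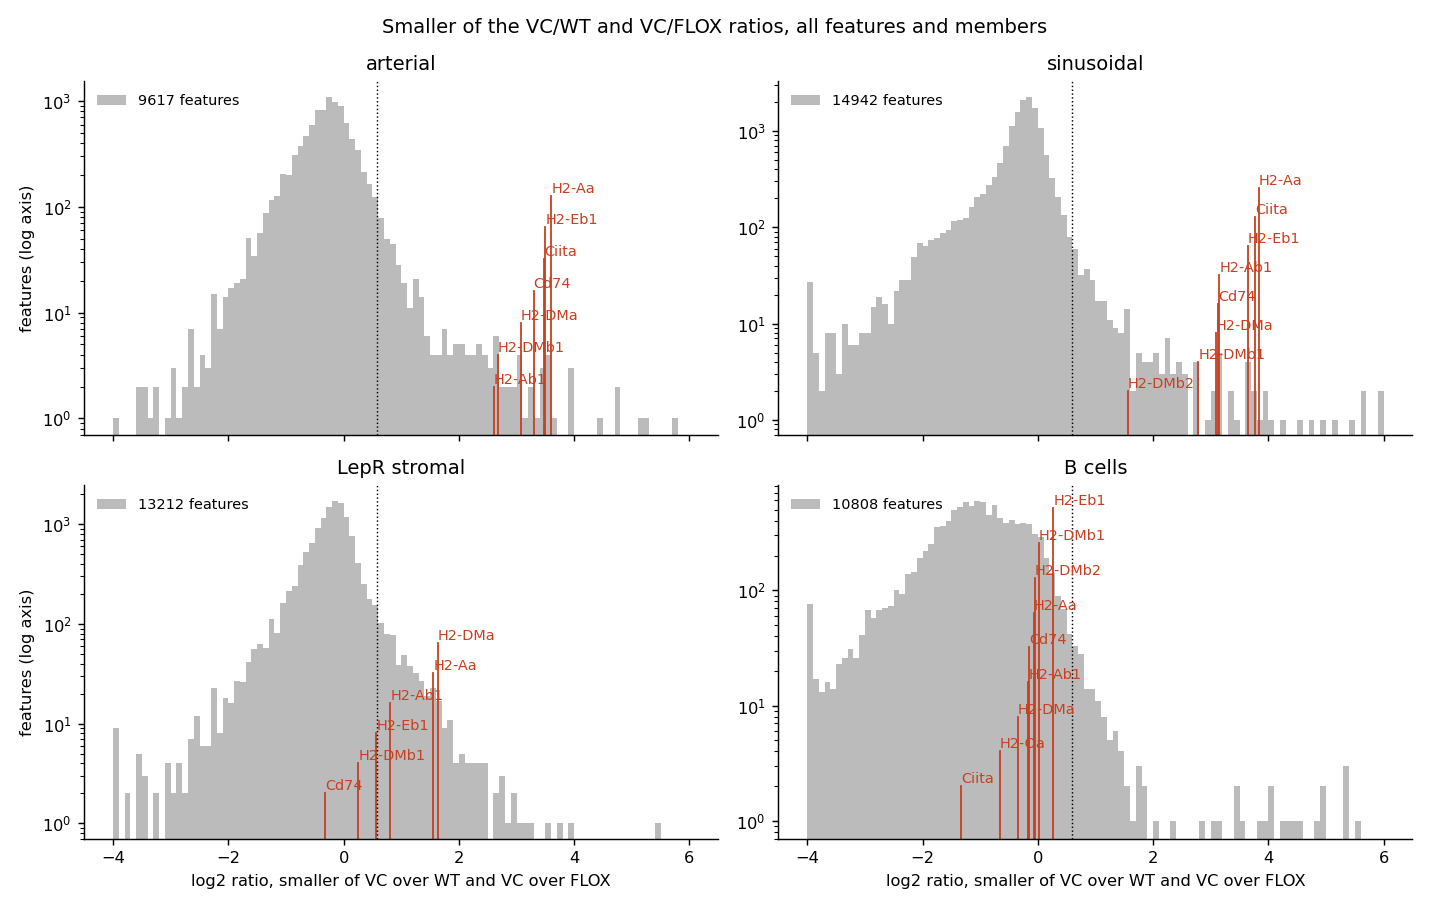
Number of features (log axis) by the smaller of their log2 ratios of VC to WT and of VC to FLOX, per gate, with extreme values drawn in the end bins; red lines mark the members that could be assessed and the dotted line the 1.5-fold threshold. In both endothelial gates every marked member lies right of the threshold, 3 of 6 do so in LepR stromal cells and 0 of 9 in B cells.

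Within VC, arterial and sinusoidal cells were compared member by member. Cd74 had an arterial over sinusoidal ratio of 1.03, with an interval that includes 1 (0.944 to 1.13). The other 6 members with UMIs in both gates were higher in arterial cells. How many of all features were higher in arterial cells was not computed, so the ratios describe these members only. The ratio was 2.04 for H2-Aa (1.81 to 2.30), 2.79 for H2-Ab1 (2.48 to 3.13) and 2.07 for H2-Eb1 (1.74 to 2.44). It was 2.87 for H2-DMa (2.17 to 3.75), 2.55 for H2-DMb1 (1.82 to 3.50) and 3.49 for Ciita (2.70 to 4.47). Expressed per 100 UMIs of Cd74, H2-Aa was at 58.1 in arterial and 29.4 in sinusoidal cells, and Ciita at 14.7 and 4.34. In FLOX the arterial ratio of the same 7 members was also highest for Ciita, 4.28 (2.01 to 8.30), and for H2-Ab1, 4.07 (3.20 to 5.12), and lowest for Cd74, 0.920 (0.732 to 1.14). The FLOX ratios depended on the cells with a leukocyte marker. Without them, a comparison chosen after seeing the data, the FLOX ratio was 7.01 for Cd74 (5.38 to 9.06), 7.50 for H2-Aa (4.94 to 11.2) and 8.61 for Ciita (3.84 to 18.0), so Cd74 no longer stood apart. Of the 81 arterial Cd74 UMIs left in FLOX, 70 came from 10 cells. In VC the ratio was then 1.15 for Cd74 (1.05 to 1.27) and between 2.09 and 3.98 for the other 6.

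Shares of cells followed the levels. After thinning, a Cd74 UMI was found in 1.19% of WT, 2.60% of FLOX and 36.4% of VC sinusoidal cells, and in 0%, 5.32% and 36.4% of arterial cells. Thinned arterial shares of H2-Ab1 were 0%, 10.6% and 36.4%. Free RNA in droplets can give such UMIs to cells that do not express a gene. Neutrophils, gated by their granule genes Ngp and Camp, served as a cell type that should hold little class II: their thinned Cd74 shares were 1.55%, 0% and 3.51%. In neutrophils the unthinned share was 4.55%, 0.990% and 10.2% at median depths of 15346, 14524 and 15685 UMIs, beside 3.60%, 6.57% and 52.7% in sinusoidal cells at 11089, 7853 and 10745 UMIs. The WT sinusoidal share was no higher than that in neutrophils of the same library, so it is not read as expression. The part of free RNA in it was not tested. In FLOX the thinned neutrophil share of 0% allowed up to 3.59%, which includes the sinusoidal 2.60%, but unthinned the sinusoidal share (5.76 to 7.46) lay above that of neutrophils (0.0251 to 5.39). The VC Cd74 shares of sinusoidal and arterial cells were above the upper bound for VC neutrophils, 12.1%.

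**Figure D4:**
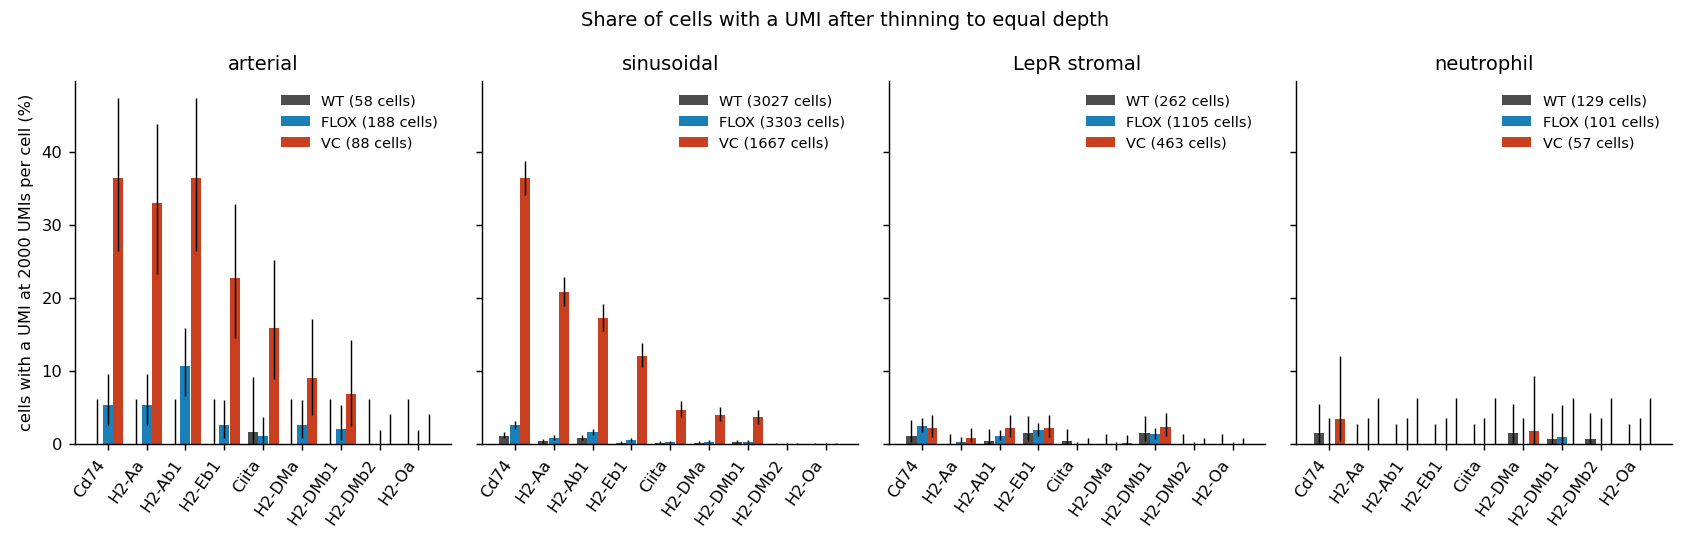
Share of cells with a UMI of each gene (percent) after thinning every cell to 2000 UMIs, with 95% binomial intervals, in 3 gates and in neutrophils. The bars of Cd74, H2-Aa, H2-Ab1 and H2-Eb1 stand out in VC arterial and sinusoidal cells, and those of LepR stromal cells stay under 3% in all 3 libraries.

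Members were found together in single cells. At least 3 of the 9 had a UMI in 1.05% of WT, 1.85% of FLOX and 44.7% of VC sinusoidal cells, and in 0%, 7.41% and 51.7% of arterial cells. The invariant chain and both chains of the A molecule were detected in the same cell in 0.458% (0.251 to 0.767), 0.986% (0.679 to 1.38) and 34.8% (32.5 to 37.1) of sinusoidal cells. That share was 22.3% in FLOX and 29.2% in VC B cells. Within VC, the 303 sinusoidal cells with a Ciita UMI had Cd74 at 867 CPM and H2-Aa at 279 CPM. The 1376 cells without one had 389 and 107 CPM. These groups also differed in median depth, 13459 and 10177 UMIs, and a cell with more UMIs is more likely to show Ciita. Arterial cells of VC gave a wider contrast at like depth: Cd74 was at 1136 CPM in the 34 cells with a Ciita UMI and at 133 CPM in the 55 without, at medians of 8984.5 and 9134 UMIs.

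In VC, the members other than H2-DMb2 and H2-Oa were higher in sinusoidal cells with more Cxcl9, an interferon-inducible chemokine. The share of all features with such an order was not computed, so this describes the members only. In VC, 926 of the sinusoidal cells had at least 10 Cxcl9 UMIs, 338 had 1 to 9 and 415 had none. Across these groups, from most to least Cxcl9, Cd74 was found in 86.4%, 17.8% and 6.02% of cells, with 10315, 662 and 83 UMIs. H2-Aa was at 228, 25.2 and 6.51 CPM and Ciita at 33.5, 4.65 and 0.241 CPM. H2-DMb2 had no such order, at 1.17, 0.245 and 1.21 CPM, and H2-Oa had 1, 0 and 0 UMIs. WT had no such order in Cd74 CPM, but its share of cells with Cd74 was 9.80%, 3.61% and 2.82%. In the controls some members had the order. H2-Aa was at 5.49, 2.13 and 1.82 CPM in WT and at 26.4, 12.9 and 5.89 CPM in FLOX. Ciita was at 4.57, 0.767 and 0.682 CPM in WT and at 4.67, 1.77 and 1.12 CPM in FLOX. Others did not, such as H2-DMa in WT, at 0.610, 0.937 and 2.88 CPM. WT cells without Cxcl9 had Cd74 at 14.0 CPM and FLOX ones at 50.7 CPM. The VC cells, at 15.9 to 24.8 CPM, lay between them. These groups keep the cells with a leukocyte marker, and they were not formed without them. With such cells left out, Cd74 over all sinusoidal cells was at 3.33 CPM in WT and 7.89 to 10.2 CPM in FLOX. The place of VC between the controls may therefore rest on those cells, which was not tested. In WT, the 153 sinusoidal cells with at least 10 Cxcl9 UMIs had Cd74 at 7.32 CPM, and in FLOX the 86 such cells had 49.0 CPM. Their H2-Aa levels were 5.49 and 26.4 CPM, below the 228 CPM of the VC cells. The groups are cells of 1 library and share its free RNA, and median depth went from 11865.5 to 9062 UMIs from the highest to the lowest group in VC. VC arterial cells had the same order: from most to least Cxcl9, Cd74 was at 1231, 411 and 278 CPM and H2-Aa at 572, 330 and 180 CPM. The 2 upper groups held 16 cells each. Arterial cells were different in that the 57 VC cells with no Cxcl9 UMI still had Cd74 at 278 CPM (235 to 326) and H2-Aa at 180 CPM (145 to 219). The same cells of FLOX, 166 in number, had 54.6 and 24.0 CPM.

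**Figure D5:**
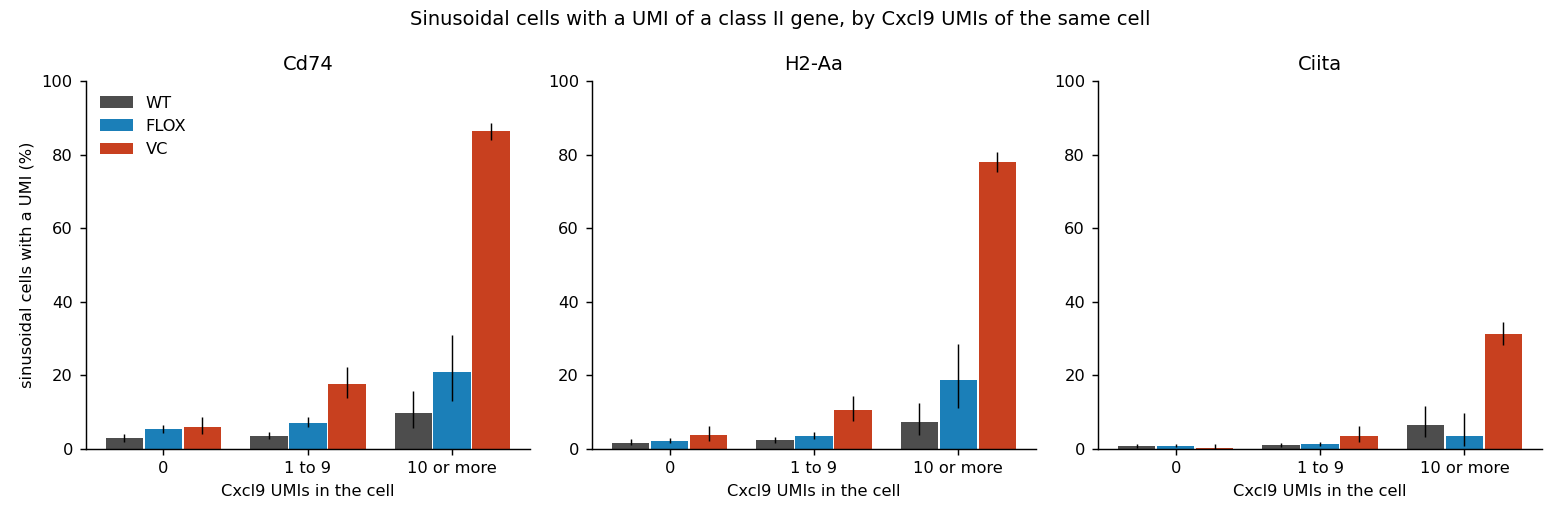
Share of sinusoidal cells with a UMI of Cd74, H2-Aa or Ciita (percent, with 95% binomial intervals), grouped by the Cxcl9 UMIs of the same cell, 1 bar per library. VC bars are highest in the cells with at least 10 Cxcl9 UMIs, where Cd74 was found in 86.4%, and the WT and FLOX bars of that last group reach 9.80% and 20.9% for Cd74.

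LepR stromal cells carried little of the set, and how many members were called depended on which cells were kept. Of the 9 members 6 could be assessed and 3 were called (H2-Aa, H2-Ab1 and H2-DMa), against 4.38% of 13212 features (579 features). Ciita had 3, 5 and 6 UMIs, or 1.01, 0.373 and 0.861 CPM, and H2-DMb2 and H2-Oa held 0 to 7 UMIs, so these 3 were not assessed. Cd74 had 15, 413 and 171 UMIs, or 5.03, 30.8 and 24.6 CPM, so that FLOX was highest. Its FLOX and VC UMIs sat in few cells, with 72.6% and 76.0% in the 10 richest. All 9 of the FLOX cells with at least 10 Cd74 UMIs and 3 of the 4 in VC held a leukocyte marker. Without cells carrying such a marker, Cd74 was at 2.46 CPM (0.901 to 5.34), 7.99 (6.42 to 9.84) and 15.4 (12.3 to 19.1). Of the 6 members assessed, 5 were then called, against 2.60% of 12582 features. Among those called, H2-Aa (0, 12 and 45 UMIs) and H2-DMa (0, 4 and 16 UMIs) reached the UMI minimum only through VC.

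H2-Aa had 7, 51 and 78 UMIs in stromal cells and was 2.95-fold above FLOX in VC (2.04 to 4.28), but all 7 of its WT UMIs came from 1 cell. H2-Ab1 had 10, 131 and 119 UMIs and was 1.75-fold above FLOX (1.35 to 2.26). H2-DMa had 1, 26 and 42 UMIs and was 3.11-fold above FLOX (1.86 to 5.29). These VC levels, 11.2 CPM for H2-Aa and 17.1 for H2-Ab1, were a small part of those in VC sinusoidal cells, which were 13.2-fold (10.6 to 16.8) and 7.02-fold (5.84 to 8.51) higher. H2-Eb1 and H2-DMb1 were present in all 3 stromal sums and not called, at 7.05, 9.02 and 13.4 CPM and 9.73, 7.30 and 11.6 CPM. Their stromal levels were above the sinusoidal ones in WT and FLOX: the sinusoidal over stromal ratio was 0.206 (0.123 to 0.358) and 0.663 (0.526 to 0.839) for H2-Eb1, and 0.111 (0.0675 to 0.184) and 0.342 (0.251 to 0.463) for H2-DMb1. Over the same cells Cxcl9 had 375, 4868 and 20006 UMIs and was 7.92-fold above FLOX in VC, a wider difference than in any member assessed. The phagocyte and dendritic markers of the stromal gate summed to 15.1, 143 and 326 CPM, with 6, 2 and 4 of 12 at 0. Lyz2 made up most of it, at 10.7, 131 and 314 CPM.

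B cells, which express class II by identity, gave the scale for these levels. None of the 9 members was called there, against 1.49% of 10808 features (161 features). Medians over the 9 were -0.07 for VC over WT and 0.05 for VC over FLOX on the log2 scale. Over all features they were -1.005 and 0.08, so the members stood above the typical feature against WT. Cd74 stood there at 1047, 3030 and 2725 CPM, and H2-Aa at 122, 93.3 and 116 CPM. The gate mixes stages, so it was divided. Late B cells, with UMIs of Ighd and Ms4a1, numbered 36, 44 and 31 and had Cd74 at 4034, 5783 and 7488 CPM. Early B cells, with genes of receptor rearrangement or the surrogate light chain and no Ighd, had 479.5, 1129 and 1650 CPM. Plasma cells of the gate had a Cd74 UMI in 100% of cells in all 3 libraries, with H2-Oa at 0 UMIs in each and Ciita at 0, 3 and 1 UMIs. Late B cells of all 3 libraries exceeded early ones in Cd74, while plasma cells kept Cd74 with little of the transactivator. Without the plasma cells, an alternative chosen after seeing the data, 2 members were called in the B cell gate, against 5.27% of 9664 features.

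Set against late B cells of the same library, VC endothelium held the members in other proportions. Cd74 in VC sinusoidal cells was at 6.72% of the late B cell level (6.30 to 7.18) and in arterial cells at 6.95% (6.23 to 7.74). H2-Aa was at 10.0% and 20.4%, and H2-Ab1 at 9.44% and 26.4%. Ciita was at 41.8% in sinusoidal cells (20.1 to 104) and at 146% in arterial cells (67.5 to 375), a wide range because late B cells held 7 Ciita UMIs. H2-DMb2 was at 0.419% (0.232 to 0.743) in sinusoidal cells and H2-Oa at 0.0554% (0.00129 to 0.381). Per 100 UMIs of Cd74, H2-DMb2 stood at 0.199 in VC sinusoidal cells (0.125 to 0.301) and at 3.19 in late B cells (2.17 to 4.54). H2-Oa stood at 0.00904 (0.000229 to 0.0504) and 1.10 (0.546 to 1.97), and H2-DMb1 at 3.41 (3.07 to 3.78) and 0.699 (0.280 to 1.45). The intervals of these 3 genes did not overlap between the cell types. Those of H2-Aa, H2-Ab1, Ciita and H2-DMa did not overlap either, with higher values in sinusoidal cells. H2-Eb1 did overlap, at 14.9 and 15.5. Except for H2-Eb1, the ratios of the members to Cd74 were therefore not those of late B cells. The share of all features that differ in this way was not computed. The 15 phagocyte and dendritic cells of VC were a mixed group, since 4 also met the LepR stromal gate and stromal markers summed to 11534 CPM. In them H2-DMb1 stood at 4.90 per 100 (3.35 to 6.95) and H2-DMb2 at 0.149 (0.00376 to 0.831), and these intervals overlapped the sinusoidal ones. Ciita did not overlap, at 0.892 per 100 in those cells (0.326 to 1.95) and 4.34 in sinusoidal cells (3.95 to 4.76), and neither did H2-Ab1, H2-Eb1 and H2-DMa, which were higher per Cd74 UMI in those cells.

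Most other genes of class II presentation were not called. Of 30 names listed as regulators, proteases, co-stimulators and upstream signals, 27 were features of the matrices. In sinusoidal cells 25 could be assessed, of which 6 were called higher, as were 2.09% of all features, and 1 (H2-Ob) was called lower, as were 6.13%. The protease Ctss, which trims the invariant chain in B cells and dendritic cells, was 3.51-fold above WT (2.95 to 4.19) and 1.95-fold above FLOX (1.67 to 2.28). Ctsl, the related protease of thymic epithelium, was abundant and not called, at 1.08-fold of WT and 1.01-fold of FLOX. The checkpoint ligand Cd274 (PD-L1) was 5.82-fold (4.75 to 7.18) and 9.46-fold (7.23 to 12.6) higher. Cd40, a co-stimulatory receptor, was 1.98-fold (1.36 to 2.90) and 1.80-fold (1.22 to 2.68) higher. The co-stimulators Cd80 and Cd86, which T cells need beside the peptide, had 5, 12 and 7 and 3, 16 and 13 UMIs, and neither was called.

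Upstream of Ciita, the transcription factor Irf1 and the feedback inhibitor Socs1 were also called higher in sinusoidal cells. Irf1 was 2.35-fold above WT (2.25 to 2.45) and 2.12-fold above FLOX (2.03 to 2.22). Socs1 was 3.33-fold (2.84 to 3.91) and 2.88-fold (2.45 to 3.40) higher. The receptor genes Ifngr1 and Ifngr2 and the kinases Jak1 and Jak2 were at 0.822 to 1.19 of the control levels. The X box and Y box factors Rfx5, Rfxap, Rfxank, Nfya, Nfyb, Nfyc and Creb1 were at 0.820 to 1.09 of them. None of these 11 genes was called in the sinusoidal gate.

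In arterial cells 19 of the 27 could be assessed, with 5 higher (among them Nfyc, Cd274, Irf1 and Socs1) and 1 lower (Cd40), beside 3.86% of all features called higher and 5.64% lower. Cd274 was at 88 UMIs in VC beside 7 in WT and 9 in FLOX, and Socs1 at 26 beside 6 and 9. Cd274 and Socs1 thus reached the UMI minimum in arterial cells only through VC. The Nfyc call rests on 10, 22 and 23 UMIs, with an interval of 0.762 to 3.92 against WT. Cd40 had 14, 16 and 4 UMIs, the reverse of its order in sinusoidal cells, and this contrast between gates was not tested. In stromal cells 5 of 21 were higher (among them Ctss, Cd274, Irf1 and Socs1), beside 4.38% of all features, and in B cells 0 of 26, beside 1.49%.

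Likeness to Cd74 was measured as Pearson's r of log2(CPM + 10) over the 9 sums of the arterial, sinusoidal and LepR stromal gates by library, among 14404 features with at least 50 UMIs. The 10 features most like it were, in order, H2-Aa (0.957), H2-Eb1 (0.936), AC110211.1, Hsph1, H2-Ab1 (0.924), Pfkfb3, Cpt2, Cacybp, Gbp7 and H2-DMa (0.909). Ciita had rank 44 (0.852) and H2-DMb1 rank 112 (0.788). The sums share libraries and depth, so these are descriptions of 9 points. Of the 10, 4 were members. Hsph1 is a heat shock protein gene, and Gbp7 is an interferon-inducible guanylate-binding protein.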

How the data were processed

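Single cells of 3 libraries (WT, FLOX and VC, grouped by their labels, 1 each) were measured with a 10x Chromium 3′ kit, version 3.1, per the labels' protocols. The deposited values are raw UMI counts per gene and cell barcode, in filtered matrices. Cell Ranger 2.1.1, Seurat 3.1 and build mm10 are listed per the submitters' processing notes, while 3.1.0 stands as the software version per the file headers, so the Cell Ranger version used is uncertain. Barcodes with at least 500 genes and at most 10% mitochondrial UMIs were kept. Counts were summed per gate and library and divided by the gate's total (CPM). Sums have exact Poisson intervals, shares Clopper-Pearson intervals and ratios exact conditional binomial intervals, all at 95%, and these and the floors cover counting error only, since 1 library per genotype allows no test. A count of 0 stood at 3 UMIs in ratios, so such a ratio is a lower bound, and no ratio was formed where both libraries held 3 UMIs or fewer. For shares, cells were also thinned to 2000 UMIs, and shallower cells were left out. No doublet caller was run; cells with leukocyte markers, the 5% of cells with the most UMIs, and cells meeting another gate were left out in alternatives. Other alternatives were cells weighted alike, median-of-ratios scaling, a stricter cell filter, a fold of 2, at least 100 UMIs, no UMI filter and stricter gates. The genes named are the members, the pathway and marker lists, and the 10 features most like Cd74. A gene of the pathway list is counted there but not reported here. Members and lists were chosen with earlier results of these data known. The ratio and interval code was tested on simulated data. Gene positions came from GENCODE M21 and promoters from RefSeq. Python 3.11.15, numpy 2.4.6, scipy 1.17.1, pandas 2.3.3 and matplotlib 3.10.9 were used.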

Additional observations from a re-analysis of the deposited data

Results flagged for a closer look

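Neutrophils, which entered no comparison of genotypes, held Cd74 at 23.7 CPM in VC, above 2.68 CPM in WT and 0.593 CPM in FLOX. This was picked out as a signal outside the main comparisons. Of its 30 UMIs, 23 came from 1 cell.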

How the results depend on the processing

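No called member reversed its direction under any alternative run. Cd74 in LepR stromal cells, not called over the whole gate, went from a log2 ratio of VC to the nearer control of -0.33 to 0.95 without leukocyte-marker cells, with values between these under the other alternatives. In alternatives that changed cells, weights or scaling, called arterial members were still called in 49 of 49 combinations of member and alternative. The tally was 55 of 56 in sinusoidal cells and 21 of 21 in LepR stromal cells. The exception was H2-DMb2 without leukocyte-marker cells, which left 19 UMIs, under the minimum of 20. These tallies leave out the fold of 2 and the changed UMI minimum. At a fold of 2, stromal H2-Ab1, 1.75-fold above FLOX, falls short. With at least 100 UMIs, stromal H2-DMa (1, 26 and 42 UMIs) and sinusoidal H2-DMb2 (6, 11 and 22 UMIs) could not be assessed. In LepR stromal cells 5 members were called without the leukocyte-marker cells and 5 without the 5% of cells with the most UMIs, in place of 3. Without the leukocyte-marker cells, stromal H2-Aa and H2-DMa reached the UMI minimum only through VC. In B cells 2 were called with each cell weighted alike and 2 without plasma cells, in place of 0. At 100 UMIs or more, 4 arterial members could be assessed and 4 were called. Counts over all features moved most: with a fold of 2 they were 157 arterial, 151 sinusoidal, 265 stromal and 65 B cell features, and with at least 100 UMIs 132, 194, 225 and 61. With no UMI filter they were 619 arterial and 310 B cell features, and without leukocyte-marker cells 327 stromal ones. In B cells 368 features were called with each cell weighted alike and 509 without plasma cells. Median-of-ratios scaling gave 298 B cell features and shifted B cell log2 ratios of VC to WT by 0.97. The cause of these moves was not tested. No paired analysis was possible because each genotype has 1 library. Depth limits H2-Oa and H2-DMb2 in the endothelial and stromal gates and all WT arterial values, and differences between genotypes cannot be told apart from differences between libraries.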
